A study of Mus musculus with 16 samples.

Results

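The collagen chain genes were followed in mouse wound tissue with and without mechanical load. The members were all probe sets whose single gene symbol in the platform annotation is Col, a number, the letter a and a number. The rule found 82 of the 34945 probe sets that carry 1 symbol, and they stand for 42 genes. By collagen class, 21 probe sets (11 genes) were fibrillar, 24 (9 genes) belonged to the fibril-associated collagens with interrupted triple helices (FACIT), 12 (6 genes) were the type IV chains of basement membranes, 5 (3 genes) were network-forming chains of types VIII and X, and 20 (13 genes) were others. The others were 7 beaded-filament probe sets of type VI, 1 anchoring-fibril probe set of type VII, 7 transmembrane, 3 multiplexin and 2 Col26a1 probe sets. Of the 42 genes, 15 had 1 probe set and 27 had several.

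The tissue was the dorsal incisional wound of wildtype C57BL/6 mice, all labelled female, with no age given. 4 groups of 4 arrays were compared, with 1 mouse per array by the design text. Unstressed wounds were collected 6 or 14 days after injury, and stressed wounds at the same days, after 48 hours of loading at day 6 and 10 days of loading at day 14. Every animal was wounded, so the unstressed groups are healing wounds and not intact skin, and the day of collection and the length of loading changed together.

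Each collagen chain carries a long repeat rich in glycine and proline, and the chains wind together into a triple helix inside the cell. Fibrillar collagens are secreted as procollagens, trimmed by proteases, packed into fibrils and crosslinked by lysyl oxidases, and in skin they come mostly from fibroblasts of the dermis. FACIT chains sit on the surface of those fibrils, type VI forms beaded filaments around cells, type VII anchors the epidermal basement membrane to the dermis, and type IV forms the sheet of the basement membrane itself.

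The deposited values are signals on a log scale, read here as log2, that were centred per probe set on a reference that is not stated. A difference of 1 between groups is then a change by a factor of 2. Because of the centring no probe set has an absolute level, so levels of different collagens cannot be ranked, it cannot be said which were above background, and the labelled tissue cannot be checked for absent markers. Array medians over all 45101 probe sets, controls included, ran from -0.0094 to 0.0519. The spread of the values over probe sets was wider at day 14 (SD 0.55 to 0.77 per array) than at day 6 (0.26 to 0.41). Replicates 3 and 4 of both day 14 groups stood apart: Xist, the RNA that coats the silenced X chromosome of female cells, was 4.38 to 5.39 on these 4 arrays and -0.38 to 0.52 on the other 12, and the mean of the Y-linked genes was -1.82 to -1.54 against -0.27 to 0.28. The 12 arrays go against the label of female mice. Both day 14 groups hold 2 arrays of each kind, so the kind does not run with load at day 14, but it runs with day, since no day 6 array has high Xist.

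At day 14, collagen genes of the fibrillar, FACIT, type VIII and type VI groups were higher in stressed than in unstressed wounds, and none was lower past the test. With limma and Benjamini-Hochberg adjustment over all 34945 probe sets, 29 of the 82 collagen probe sets (35.4%) were higher under load and 0 were lower at an adjusted p under 0.05, against 3.31% higher and 4.04% lower of all probe sets. The 29 probe sets belong to 16 genes, and in 12 of these every probe set was higher. The median difference of the 82 probe sets was 0.33, with a range of -0.90 to 4.88, and the median of all probe sets was 0.0052. The 4 stressed arrays lay wholly above the 4 unstressed arrays for 30 collagen probe sets and wholly below for 1, which was Col9a3 (1460693_a_at); over all probe sets these shares were 5.55% and 4.52%. The RNA came from whole tissue, so fewer or more cells of a type and less or more RNA per cell cannot be told apart in any of these differences. All 29 probe sets had a difference above 0 in each of 26 other settings at the level of probe sets. Many of these settings kept all 8 day 14 arrays with unchanged values and no weights, which fixes the difference by construction. The sign could change only with quantile normalization, array weights or fewer day 14 arrays. Of the 16 genes only Col1a1 turned direction in a fit per gene that used the probe set of largest interquartile range. The call changed between settings: 10 of the 29 kept it when the 8 day 14 arrays were fitted without the day 6 arrays (0.292% of all probe sets higher), and 17 after quantile normalization (0.538%). Without replicate 2 of the stressed day 14 group 20 kept it. There 498 of all 34945 probe sets were higher, against 1156 with all arrays. Lower calls at day 14 appeared with only replicates 1 and 2 of day 14: 34 collagen probe sets were higher and 3 lower there, 1 each of Col15a1, Col1a1 and Col4a4, against 7.77% higher and 11.0% lower of all probe sets.

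At day 6 no collagen probe set passed the test of load. The limma count was 0 of 82 in either direction, against 0.0143% higher and 0.0114% lower of all probe sets, and the smallest adjusted p was 0.42. At an unadjusted p under 0.05 there were 19. The difference was above 0 for 60 of the 82, with a median of 0.16 and a range of -1.33 to 1.74, while the median of all probe sets was 0.0011. After quantile normalization the collagen median was 0.28 at day 6 and 0.27 at day 14, so the order of the days depends on the scaling. Groups did not overlap for 9 collagen probe sets, all with the stressed arrays higher, and this share was 3.11% higher and 3.05% lower over all probe sets. After quantile normalization 7 collagen probe sets were called higher, of Col12a1, Col14a1, Col1a2, Col5a2, Col8a1 and Col8a2 (0.864% of all probe sets), and 9 were called with array weights (0.962%).

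**Figure D1:**
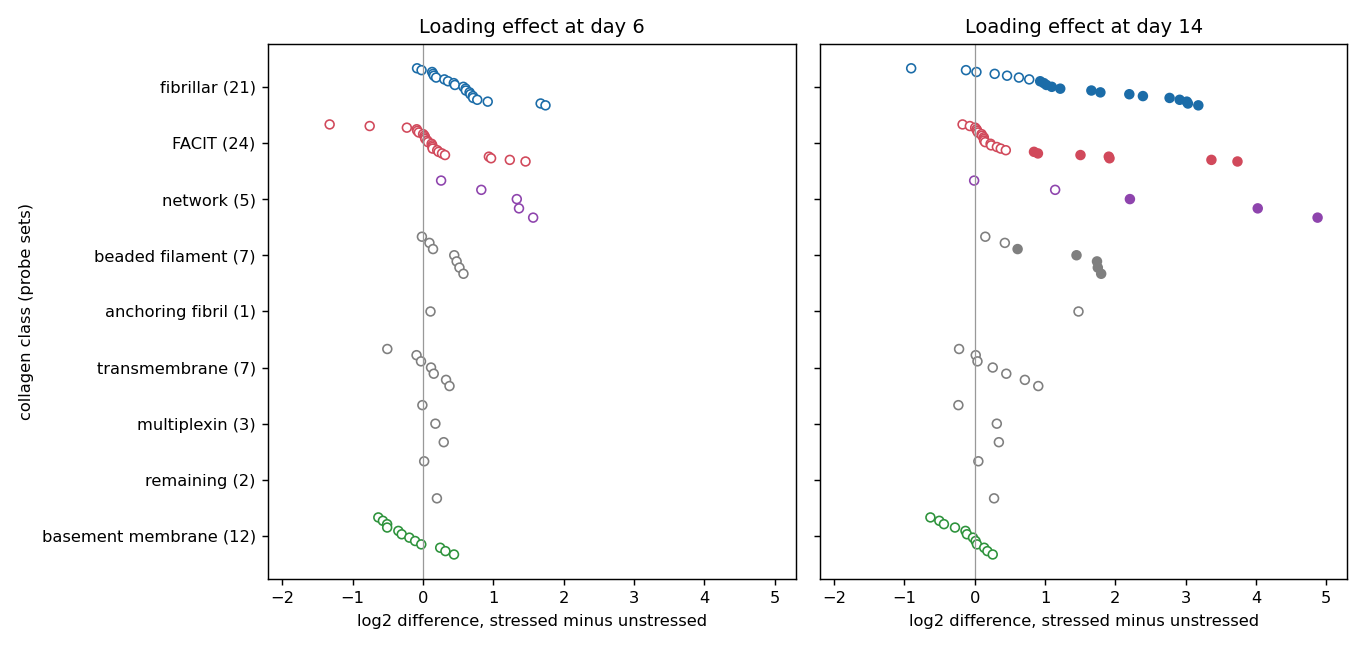
Loading effect of the 82 collagen probe sets (stressed minus unstressed, log2) at day 6 and day 14, by class, with filled points for an adjusted p under 0.05. Fibrillar, type VIII and type VI points spread upward at day 14, to a highest value of 4.88 for Col8a1, while the basement membrane points stay between -0.63 and 0.26.

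The RefSeq sequence just before the start is shown for 5 genes that rose at day 14, since they moved together across 3 classes. It is credited to RefSeq (build GRCm38.p6), covers 150 bases ending at the base before the first listed start and is written 5′ to 3′ on the strand of the gene. Capitals mark matches to 5 motifs searched on both strands: the TATA box (TATAAA), the CCAAT box (CCAAT), the AP-1 site (TGANTCA), the TEAD site (CATTCC) and the SMAD site (CAGAC). The windows are chr1:45311388-45311537 (plus strand) for Col3a1, chr6:4505468-4505617 (plus) for Col1a2, chr2:27886275-27886424 (plus) for Col5a1, chr16:57754738-57754887 (minus) for Col8a1 and chr10:76726045-76726194 (minus) for Col6a1.
Col3a1: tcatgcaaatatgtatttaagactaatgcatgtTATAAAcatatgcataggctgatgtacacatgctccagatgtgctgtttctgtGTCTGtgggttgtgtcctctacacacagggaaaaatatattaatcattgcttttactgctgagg
Col1a2: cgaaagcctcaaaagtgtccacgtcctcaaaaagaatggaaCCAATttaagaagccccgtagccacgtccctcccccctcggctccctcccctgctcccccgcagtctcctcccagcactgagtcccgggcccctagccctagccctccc
Col5a1: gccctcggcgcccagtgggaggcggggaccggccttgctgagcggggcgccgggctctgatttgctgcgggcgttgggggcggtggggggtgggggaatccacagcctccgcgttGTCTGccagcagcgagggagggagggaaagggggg
Col8a1: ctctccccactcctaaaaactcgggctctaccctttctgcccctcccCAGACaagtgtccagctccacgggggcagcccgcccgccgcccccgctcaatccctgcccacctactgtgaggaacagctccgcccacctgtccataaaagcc
Col6a1: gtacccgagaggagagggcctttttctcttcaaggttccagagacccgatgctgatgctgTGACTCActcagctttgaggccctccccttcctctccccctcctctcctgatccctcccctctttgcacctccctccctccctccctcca
The matches differ from gene to gene. Col3a1 has a TATAAA match at bases -117 to -112 from the start and a SMAD match in the reverse orientation. Col1a2 has a CCAAT box, Col5a1 a SMAD match in the reverse orientation, Col8a1 a SMAD match in the forward orientation, and Col6a1 the AP-1 match. Of the 42 genes 33 matched the promoter table. The TATA box was found in 4 of these 33 (12.1%) and in 8.08% of 27025 promoters, the CCAAT box in 7 (21.2% against 25.3%) and the SMAD motif in 7 (21.2% against 27.8%). AP-1 was found in 1 (3.03% against 4.27%) and TEAD in 2 (6.06% against 7.64%). Short motifs match often in any sequence, and a match is a description of the letters only.

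Among the fibrillar collagens, 14 of 21 probe sets rose under load at day 14 and 0 fell. The 14 belong to 7 genes: Col1a1, Col1a2, Col2a1, Col3a1, Col5a1, Col5a2 and Col27a1. The class median was 1.10 at day 14 and 0.57 at day 6. Col5a2 encodes a chain of type V, the minor collagen that starts type I fibrils and limits their width. Its probe set 1450625_at read -2.29, -1.74, -3.45 and -2.68 on the unstressed day 14 arrays (replicates 1 to 4, as in all such series below) and 0.92, 0.80, 0.67 and 0.16 on the stressed ones. At day 6 it read -0.59, -0.17, -0.45 and -0.06 unstressed and 0.51, 0.06, 0.36 and 0.62 stressed. The stressed arrays were above the unstressed arrays at both days, and the low values were those of the unstressed day 14 wounds. The loading effect was 3.18 (SE 0.28, adjusted p = 5.5e-05) at day 14 and 0.71 (SE 0.28, adjusted p = 0.74) at day 6. The second probe set of Col5a2, 1422437_at, rose by 2.39 at day 14 (adjusted p = 0.00074). The partner chain Col5a1 rose on its 3 probe sets by 2.92, 3.03 and 2.77, while Col5a3 did not pass on either probe set (0.63 and -0.12).

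Col3a1, the chain of type III collagen that is laid down early in wounds, had its lowest values in the same group. Probe set 1427884_at read -1.73, -1.48, -3.52 and -2.65 in unstressed and 0.84, 0.82, 0.61 and 0.42 in stressed wounds at day 14. The day 6 values were -0.06, 0.11, -0.61 and -0.07 unstressed and 0.32, -0.02, 0.39 and 0.49 stressed. The day 14 groups did not overlap and the day 6 groups did. The effect was 3.02 (SE 0.33, adjusted p = 0.00015) at day 14 and 0.45 (SE 0.33, adjusted p = 0.99) at day 6, and the other probe set, 1427883_a_at, rose by 0.98 (adjusted p = 0.0057) at day 14. In the RefSeq table Col3a1 and Col5a2 are neighbours on chromosome 1.

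Type I collagen, the main fibril of dermis and scar, is built of Col1a1 and Col1a2 chains. Col1a2 rose at day 14 on 3 of 3 probe sets, by 1.79 (1423110_at), 2.20 (1446326_at) and 1.22 (1450857_a_at). On 1446326_at the unstressed day 14 arrays read -2.63, -2.19, -3.80 and -3.52 and the stressed ones -0.9995, -0.80, -0.50 and -1.06. The same probe set read -0.08, 0.08, -0.06 and 0.06 in unstressed and 1.21, 0.86, 0.93 and 0.67 in stressed day 6 wounds. Stressed arrays were above unstressed arrays at both days, and both day 14 groups were below their day 6 groups. Its loading effect was 2.20 (SE 0.27, adjusted p = 0.00045) at day 14 and 0.92 (SE 0.27, adjusted p = 0.47) at day 6.

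The 2 probe sets of Col1a1 disagreed. On 1423669_at the unstressed day 14 arrays read -0.68, -0.46, -2.90 and -2.23 and the stressed ones 0.17, 0.20, 0.03 and -0.03. The day 6 values were -0.37, 0.08, -0.09 and -0.04 unstressed and 0.14, -0.05, 0.10 and 0.13 stressed. Replicates 3 and 4 of the unstressed day 14 group were the lowest of the 16 arrays, the day 14 groups did not overlap, and the effect was 1.66 (SE 0.39, adjusted p = 0.018). On 1455494_at the stressed mean at day 14 was lower than the unstressed one, with a difference of -0.90 (SE 0.46, adjusted p = 0.25) that did not pass the test. At the level of genes the direction of Col1a1 thus depends on which probe set stands for it. With the probe set of largest interquartile range it was -0.90 (adjusted p = 0.25).

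The remaining fibrillar chains, several of them known from cartilage, had smaller differences. Col2a1, the main fibril of cartilage, rose by 1.10 (adjusted p = 0.015), and Col27a1 rose on both probe sets, by 1.02 and 0.93. Col24a1 had 0.78 (adjusted p = 0.11) and Col11a2 had 0.03. The probe sets of Col11a1 had the largest day 6 differences of the class, 1.67 and 1.74, which did not pass (adjusted p = 0.74 and 0.52), and smaller ones at day 14, 0.46 and 0.29.

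**Figure D2:**
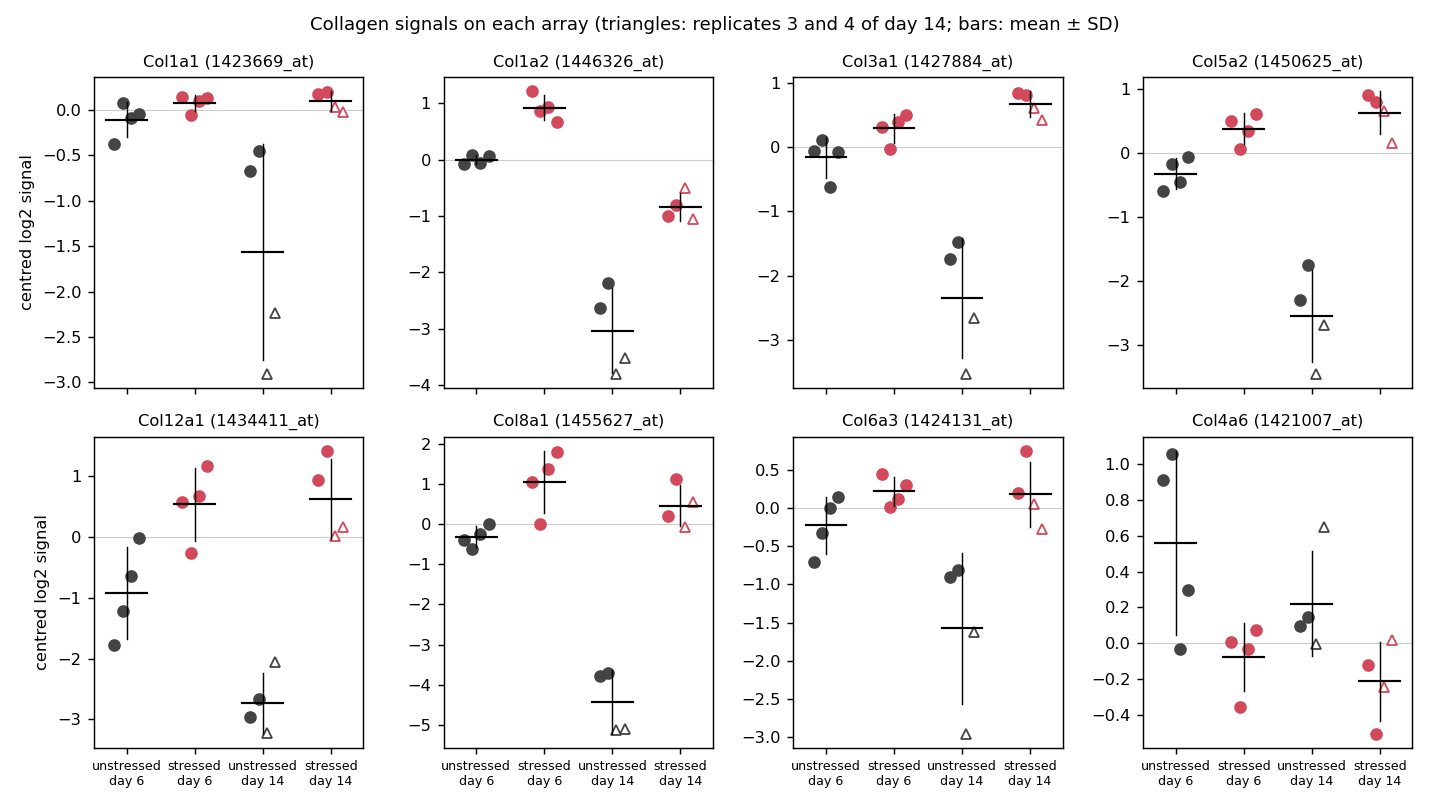
Centred log2 signal of 8 collagen probe sets on each of the 16 arrays by group, with triangles for replicates 3 and 4 of the day 14 groups and bars for the mean and SD of 4 arrays. The unstressed day 14 arrays lie lowest for Col3a1, Col5a2, Col12a1 and Col8a1, whereas the groups of Col4a6 overlap.

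In the FACIT class 7 of 24 probe sets rose under load at day 14 and 0 fell, with a class median of 0.19. They belong to Col12a1 (2 of 4 probe sets), Col14a1 (3 of 3), Col16a1 and Col9a1 (1 of 2). Col12a1 encodes the chain of type XII, which lies on type I fibrils of tissues under tension. Its probe set 1434411_at read -2.96, -2.67, -3.23 and -2.06 in unstressed and 0.93, 1.42, 0.02 and 0.17 in stressed day 14 wounds. At day 6 the values were -1.78, -1.22, -0.65 and -0.02 and 0.58, -0.27, 0.67 and 1.17. The day 14 groups stood more than 2 units apart at their nearest arrays, whereas the day 6 groups overlapped. The effect was 3.37 (SE 0.40, adjusted p = 0.00034) at day 14 and 1.46 (SE 0.40, adjusted p = 0.42) at day 6, the smallest adjusted p of any collagen probe set at day 6. Probe set 1427391_a_at rose by 3.74 (adjusted p = 0.0017), and the other 2 probe sets of Col12a1 had differences of 0.11 and 0.04.

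Col14a1, the chain of type XIV that binds fibrils in tendon and skin, rose on all its probe sets by 1.92, 1.91 and 1.51. On 1427168_a_at the unstressed day 14 arrays read -0.63, -0.87, -2.41 and -1.18 and the stressed ones 0.38, 0.52, 0.67 and 1.01. The day 6 arrays read -0.55, -0.09, -0.89 and -0.38 and 0.68, 0.09, 0.30 and 0.88. Stressed arrays lay above unstressed arrays at both days, with effects of 1.92 (SE 0.31, adjusted p = 0.003) at day 14 and 0.97 (SE 0.31, adjusted p = 0.53) at day 6. Col16a1 rose by 0.84 at day 14 (adjusted p = 0.0034). Col9a1, a chain of the type IX collagen of cartilage, rose on 1421381_a_at by 0.90 (adjusted p = 0.0037) and had 0.15 on 1428571_at. Col9a2, Col9a3, Col19a1, Col20a1 and Col22a1 had 0 probe sets that passed at day 14. Col19a1, whose gene is the neighbour of Col9a1 on chromosome 1, had the lowest day 6 value of the collagens, -1.33 (adjusted p = 0.53).

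The largest loading effect of any collagen was that of Col8a1, a chain of the short network collagen VIII found beneath endothelium and in remodelling vessel walls. Its probe set 1455627_at read -3.77, -3.71, -5.11 and -5.10 in unstressed and 0.20, 1.11, -0.07 and 0.56 in stressed wounds at day 14. At day 6 it read -0.40, -0.63, -0.24 and 0.0045 unstressed and 1.04, -0.0045, 1.37 and 1.79 stressed. The 4 unstressed day 14 arrays stood far below the other 12, and the day 6 groups touched through replicate 2 of the stressed group, which lay at the level of replicate 4 of the unstressed group. The effect was 4.88 (SE 0.39, adjusted p = 3.4e-05) at day 14 and 1.36 (SE 0.39, adjusted p = 0.45) at day 6. The other probe sets of Col8a1 rose at day 14 by 4.02 and 2.21.

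Its partner chain Col8a2 had a different order of groups. The day 6 arrays of 1434667_at read -0.29, 0.28, -0.27 and 0.05 unstressed and 1.62, 0.65, 1.64 and 2.12 stressed. The day 14 arrays read -2.33, -1.97, -1.73 and -0.73 unstressed and -1.40, -2.09, 0.06 and 1.26 stressed. The groups were apart at day 6 and overlapped at day 14, where the stressed arrays were spread over more than 3 units. The effect was 1.56 (SE 0.56, adjusted p = 0.63) at day 6 and 1.15 (SE 0.56, adjusted p = 0.23) at day 14, and neither passed. Col10a1, the network collagen of growth cartilage, had -0.01 at day 14.

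Of the 7 beaded-filament probe sets of type VI collagen, 5 rose at day 14 and 0 fell, with a median of 1.45. Col6a1, Col6a2 and Col6a3 are the chains that join into the common type VI monomer. Col6a3 (1424131_at) read -0.90, -0.82, -2.95 and -1.63 in unstressed and 0.19, 0.74, 0.05 and -0.27 in stressed wounds at day 14. Its day 6 values were -0.71, -0.33, -0.01 and 0.14 and 0.44, 0.01, 0.12 and 0.30. The day 14 groups did not overlap, replicates 3 and 4 of the unstressed group were lowest, and the effect was 1.75 (SE 0.37, adjusted p = 0.012). Col6a1 (1448590_at) read -0.53, -0.66, -2.99 and -1.51 unstressed and 0.38, 0.88, 0.04 and -0.04 stressed at day 14. The order was that of Col6a3, with an effect of 1.74 (SE 0.40, adjusted p = 0.018). Col6a2 (1426947_x_at) read -0.75, -0.87, -3.04 and -1.97 unstressed and 0.05, 0.85, -0.17 and -0.17 stressed at day 14 and rose by 1.80 (adjusted p = 0.015). The suffix of this probe set marks possible cross-hybridisation, and the other probe set of Col6a2, 1452250_a_at, rose by 1.45 (adjusted p = 0.027). Col6a1 and Col6a2 are neighbours on chromosome 10. Of the later-described chains, Col6a4 rose on 1445470_at (0.61, adjusted p = 0.016) and not on 1429072_at (0.43, adjusted p = 0.12), and Col6a5 had 0.15.

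Col7a1, the chain of the anchoring fibrils that keratinocytes and fibroblasts secrete, had a difference of the size of the type VI chains but a wider spread. The day 14 arrays of 1419613_at read -0.98, -1.46, -2.95 and -1.98 unstressed and -0.17, 1.003, -0.90 and -1.44 stressed. The day 6 arrays read -0.38, -0.50, 1.12 and 1.02 and 0.81, 0.56, 0.19 and 0.10. Groups overlapped at both days, and the effect at day 14 was 1.47 (SE 0.52, adjusted p = 0.096).

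The basement membrane chains of type IV gave 0 of 12 probe sets past the test at either day, with a median of -0.07 at day 14 and -0.25 at day 6. Col4a1 and Col4a2, the chains of nearly all basement membranes, had day 14 differences of 0.26 and -0.02 (Col4a1) and 0.14 (Col4a2), each with an SE of 0.30 to 0.35. Col4a4, a chain best known from the kidney glomerulus, read 1.01, 0.98, -0.44 and -0.24 unstressed and -0.11, -0.56, -0.44 and -0.09 stressed at day 14 on 1440250_at. The unstressed replicates 1 and 2 were the high ones and the groups overlapped, with an effect of -0.63 (SE 0.36, adjusted p = 0.31). Its other probe sets had -0.13 and -0.28. Col4a6, an X-linked chain of epithelial basement membranes, read 0.91, 1.06, -0.03 and 0.30 unstressed and 0.01, -0.36, -0.03 and 0.07 stressed at day 6 on 1421007_at. At day 14 it read 0.10, 0.14, -0.01 and 0.65 unstressed and -0.12, -0.51, -0.25 and 0.02 stressed. Groups overlapped at both days, and the effects were -0.64 (SE 0.22, adjusted p = 0.6) at day 6 and -0.44 (SE 0.22, adjusted p = 0.25) at day 14. The second probe set of Col4a6, 1421006_at, had -0.51 and -0.11.

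None of the 7 transmembrane and 3 multiplexin probe sets passed at day 14, with medians of 0.26 and 0.32. Col25a1, a membrane collagen of neurons and muscle, came nearest: 1438540_at read -0.36, -0.23, -0.28 and -0.23 unstressed and 1.41, 0.90, 0.51 and -0.30 stressed at day 14. The stressed replicates 1 to 3 were above the unstressed arrays and replicate 4 was among them, with an effect of 0.91 (SE 0.28, adjusted p = 0.064). Col23a1 (1429209_at) read -0.42, -0.65, -0.95 and -0.37 unstressed and -0.53, -0.10, -0.47 and -0.28 stressed at day 14, overlapping, with 0.26. Col17a1, the hemidesmosome collagen of basal keratinocytes, had -0.22 and Col13a1 had 0.04. The multiplexin Col18a1, the source of endostatin, read -0.38, -0.46, -0.27 and -0.70 unstressed and -0.30, 0.54, -0.42 and -0.25 stressed at day 14 on 1418237_s_at, with 0.34. Replicate 2 of its stressed group stood above all other day 14 arrays. Col15a1 (1448755_at) read 0.49, 0.77, -1.10 and -0.33 unstressed and -1.14, -0.23, -0.01 and 0.29 stressed. In replicates 1 and 2 the stressed arrays were the lower ones and in replicates 3 and 4 the higher ones, and the effect over all 4 was -0.23 (SE 0.35, adjusted p = 0.75). Col26a1 had 0.28 and 0.05.

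Between day 6 and day 14 more collagen probe sets fell than rose in unstressed wounds. In limma, 35 of the 82 probe sets (42.7%) were lower at day 14 and 9 (11.0%) were higher, against 23.4% lower and 16.8% higher of all probe sets. The median change was -0.35, and that of all probe sets was -0.0456. After quantile normalization 18 (22.0%) were lower and 8 higher, against 20.6% lower and 14.7% higher of all probe sets, so the share of falling collagens was then near that of all probe sets. The groups did not overlap for 29 probe sets with lower and 9 with higher day 14 arrays, against 21.8% and 16.5% of all probe sets. The unstressed day 14 arrays are also the reference of the day 14 loading effect, so the 2 results rest on the same 4 arrays. In the fibrillar class 15 of 21 fell and 1, of Col5a3, rose, with a median of -1.10. In the type VIII and X class 3 of 5 fell and 1, Col10a1, rose. Probe sets of the same gene were called in opposite directions for Col5a3 (1 lower and 1 higher) and Col12a1 (2 lower and 1 higher of 4). The largest falls were those of Col8a1 on 1455627_at, -4.11 (SE 0.39, adjusted p = 5.6e-06), and of Col1a2 on 1446326_at, -3.04 (SE 0.27, adjusted p = 3.6e-06). Col7a1 fell by 2.16 (SE 0.52, adjusted p = 0.0042), and Col17a1 fell by 1.15 (SE 0.35, adjusted p = 0.017). Of the FACIT probe sets 6 fell and 6 rose: Col19a1 changed on 1421698_a_at by -2.60 (SE 0.43, adjusted p = 0.00031), and the cartilage chains Col9a1, Col9a2 and Col9a3 rose by 0.40 to 0.58 on 4 probe sets. Of type IV, 1 probe set fell, Col4a4 on 1445328_at (-0.93, adjusted p = 0.04).

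In stressed wounds 7 collagen probe sets fell (8.54%) and 17 rose (20.7%) over the same interval by the limma test, against 26.6% lower and 18.7% higher of all probe sets, with a median of -0.0006 against -0.0706. With the replicate number as a block 12 were lower and 15 higher, against 24.8% and 16.6% of all probe sets. The groups did not overlap for 8 probe sets with lower and 13 with higher day 14 arrays, against 23.4% and 16.5% of all probe sets. Fibrillar Col1a1 (1423669_at), Col3a1 (1427884_at) and Col5a2 (1450625_at) changed by 0.02, 0.38 and 0.25, none past the test. The 7 that fell were those of Col1a1 (1455494_at), Col8a2, Col1a2 (1446326_at), Col5a3, Col19a1 and Col23a1, the last with 2 probe sets. Their largest changes were -2.27 (SE 0.46, adjusted p = 0.0012) for Col1a1, -2.05 (SE 0.56, adjusted p = 0.0081) for Col8a2 and -1.76 (SE 0.27, adjusted p = 0.00017) for Col1a2. These 7 also fell in unstressed wounds, where they were 7 of 35. Of the 17 that rose, 10 were FACIT, among them Col14a1 on 1453931_at by 1.57 (SE 0.36, adjusted p = 0.0029) and Col9a1 on 1421381_a_at by 1.34 (SE 0.15, adjusted p = 2.4e-05), and Col6a4 rose on 1445470_at by 1.30 (SE 0.14, adjusted p = 1.4e-05). 8 of the 17 rose in unstressed wounds too, where 9 rose. No probe set passed in opposite directions between unstressed and stressed wounds. In stressed wounds Col19a1 had calls in both directions, on different probe sets. Day 6 has no arrays with high Xist, so day and kind of array were separated by using replicates 1 and 2 of day 14 alone, or by a block for the high-Xist arrays. With replicates 1 and 2 alone, 20 collagen probe sets (24.4%) were lower and 8 higher with time in unstressed wounds, against 21.8% and 14.7% of all probe sets. In stressed wounds 10 were lower and 21 higher, against 27.6% and 19.4%. With the block for high-Xist arrays 22 (26.8%) were lower and 9 higher in unstressed wounds, against 21.8% and 14.5% of all probe sets. In stressed wounds the block gave 6 lower and 20 higher, against 26.0% and 17.9%. With only replicates 3 and 4 of day 14, 9 were lower and 9 higher in stressed wounds, against 21.6% and 13.0%.

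**Figure D3:**
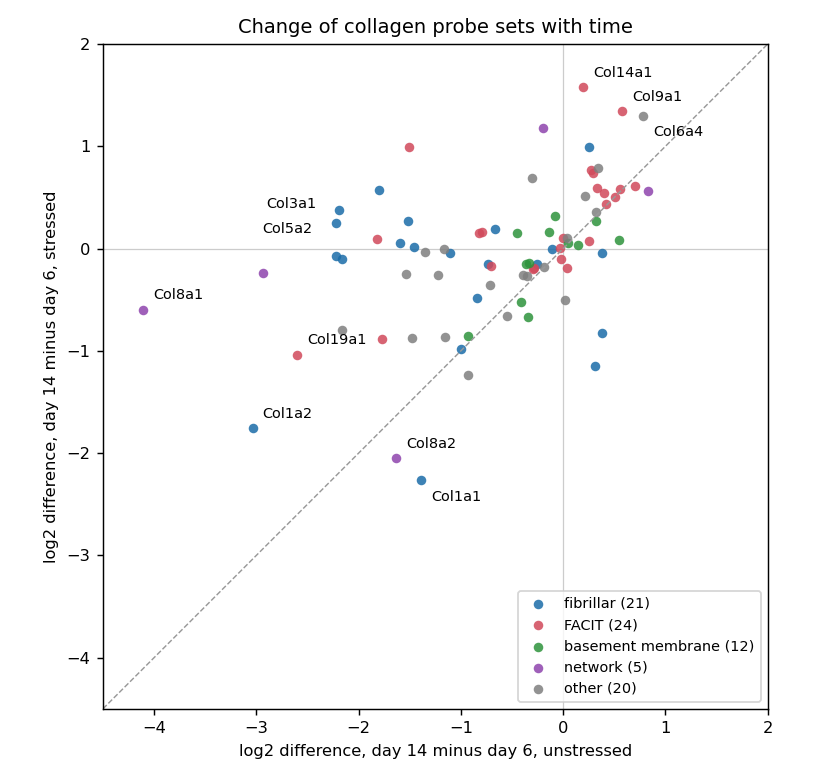
Change from day 6 to day 14 (log2) of each of the 82 collagen probe sets in unstressed wounds (horizontal axis) and stressed wounds (vertical axis), with a dashed line of equal change. Col8a1, Col3a1 and Col5a2 lie far above the line, at -4.11, -2.19 and -2.22 in unstressed against -0.60, 0.38 and 0.25 in stressed wounds.

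Whether the change with time differed between stressed and unstressed wounds is the same contrast as whether the loading effect differed between the days. The median of this difference was 0.30 over the 82 probe sets and -0.0019 over all. In limma 0 of 82 passed, against 0.00858% of all probe sets, with 28 at an unadjusted p under 0.05. The nearest were Col8a1 on 1455627_at, 3.51 (SE 0.56, adjusted p = 0.06), Col5a2 on 1450625_at, 2.47 (SE 0.40, adjusted p = 0.06), and Col3a1 on 1427884_at, 2.56 (SE 0.47, adjusted p = 0.094). A larger loading effect at day 14 than at day 6 is therefore not shown by this test for any single collagen. A block for the high-Xist arrays gave 6 higher probe sets, of Col3a1, Col5a1, Col5a2 and Col8a1 (0.137% of all probe sets), array weights gave 7 (0.804%), and a block for the replicate number gave 1, of Col8a1 (0.02%).

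The loading effect at day 14 was above 0 for 61 of the 82 probe sets between replicates 1 and 2 of each group, and for 61 between the high-Xist replicates 3 and 4, with medians of 0.50 and 0.38. The fibrillar median was 0.96 on the former pair and 1.83 on the latter, the type VI median 0.98 and 1.92, and the FACIT median 0.29 and 0.10. Col5a2 had 2.88 and 3.48, Col3a1 2.43 and 3.60, Col12a1 3.99 and 2.74 and Col8a1 4.40 and 5.35 (differences of means over 2 arrays a side, on the probe sets described above). These genes were higher under load in both kinds of arrays. Type I collagen differed more: Col1a1 (1423669_at) had 0.75 and 2.57, and Col1a2 (1446326_at) had 1.51 and 2.89.

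A fit of 6 groups, with the day 14 groups divided by kind of array, was added after these values had been seen, and tested the difference between the 2 loading effects. In it 5 collagen probe sets had a larger effect in replicates 3 and 4 and 1 a smaller one, against 0.93% and 0.535% of all probe sets. The larger effects were those of Col11a1 (1418599_at, a difference of 3.87, adjusted p = 0.022), Col15a1 (2.17), Col1a2 (1.90 on 1423110_at and 1.38 on 1446326_at) and Col1a1 (1.82 on 1423669_at), and the smaller one was that of Col13a1 (-1.04). Inside the unstressed day 14 group 17 collagen probe sets were lower in replicates 3 and 4 than in replicates 1 and 2 and 0 were higher, against 2.85% lower and 2.73% higher of all probe sets. Inside the stressed group 5 were lower and 1, Col8a2, was higher, against 2.34% and 3.32%. The 17 included Col1a1 on 1423669_at (-2.001) and Col1a2 on 1423110_at (-2.01) (adjusted p = 0.00011 and 9.4e-05). Col1a1 on 1455494_at was not among them (0.18, adjusted p = 0.91), and on Col1a2 1446326_at replicates 1 and 2 of the unstressed group, at -2.63 and -2.19, also lay below all 4 stressed arrays of day 14.

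**Figure D4:**
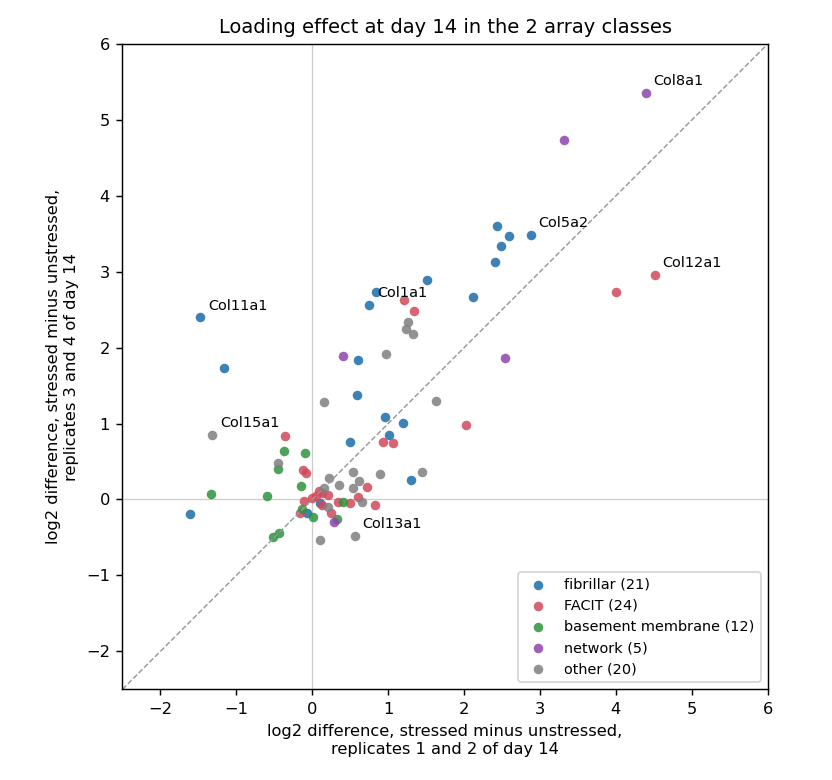
Loading effect at day 14 (log2) of the 82 collagen probe sets in replicates 1 and 2 (horizontal axis) and in the high-Xist replicates 3 and 4 (vertical axis). Col8a1, Col5a2, Col3a1 and Col12a1 are high on both axes, whereas Col11a1 and Col15a1 lie below 0 on the horizontal and above 0 on the vertical axis.

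Genes that make, process and bind collagen were counted beside the chains, each represented by 1 probe set. At day 6, 0 genes of the 6 lists passed. The counts are from the fit of all probe sets, where 3.31% were higher and 4.04% lower under load at day 14. In a separate fit of 1 probe set per gene, 3.88% of all genes were higher and 4.27% were lower. Of 18 genes for chain modification and folding, 13 rose at day 14 and 0 fell, with a median of 1.17. P3h3, a prolyl 3-hydroxylase family member, rose by 2.70 (adjusted p = 8.8e-05), Serpinh1, the collagen chaperone HSP47, by 1.43 (adjusted p = 0.0027), and the prolyl 4-hydroxylase subunits P4ha3 and P4ha2 by 1.69 and 2.02. Of 5 crosslinking genes 3 rose and 1 fell: lysyl oxidase Lox rose by 3.47 (adjusted p = 0.0005), Loxl1 by 2.10 and Loxl3 by 1.32, and the transglutaminase Tgm2 fell by 1.03 (adjusted p = 0.037). Among 6 genes of procollagen processing, the C-proteinase Bmp1 rose by 2.04 and its enhancer Pcolce by 1.55, while Pcolce2 fell by 3.10 (adjusted p = 0.0064).

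Of 12 genes for proteins that bind fibrils 6 rose and 1 fell. Asporin, Aspn, rose by 4.85 (adjusted p = 0.00024), biglycan, Bgn, by 1.75, thrombospondin 2, Thbs2, by 3.27 and fibromodulin, Fmod, by 2.41, and tenascin X, Tnxb, fell by 1.68. Of 10 collagen receptors 2 rose, the uptake receptor Mrc2 (1.63) and the integrin subunit Itgb1 (1.19), and 1 fell, the adhesion receptor Adgrg1 (-0.88). Of 8 genes for collagen breakdown 3 rose, Mmp14 by 2.88, Mmp13 by 2.45 and Mmp2 by 1.32, and 0 fell. From day 6 to day 14 in unstressed wounds 14 of the 18 modification genes, 4 of the 5 crosslinking genes and 5 of the 8 breakdown genes fell. In the separate fit of 1 probe set per gene 31.8% of all genes fell.

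Markers of other cells in the wound moved at day 14 as well, where 3.31% of all probe sets were higher and 4.04% lower under load. Of 15 fibroblast markers that are no collagens 6 rose under load and 0 fell, with a median of 0.90, 4 of them (Dcn, Lum, Mmp2 and Loxl1) also being in the lists above, and their mean per array was -1.78 to -0.65 in unstressed and -0.09 to 0.49 in stressed wounds. Of 8 macrophage markers 6 rose (median 1.49, -2.59 to -1.52 against -1.13 to 0.04). Of 14 skeletal muscle markers 10 fell (median -2.87, -1.35 to 0.79 against -4.31 to -0.35) and of 8 adipocyte markers 6 fell (median -2.26, 0.59 to 1.99 against -2.27 to 0.35). By kind of array, the muscle median was -4.23 without and -0.998 with high Xist, and the adipocyte median -2.86 and -1.65. Among 10 endothelial markers 0 passed (median 0.62), and of 8 hair follicle markers 2 fell under load and 6 rose with time in unstressed wounds. With time in unstressed wounds 16.8% of all probe sets rose. Of 9 basal keratinocyte markers 1 fell, of 8 suprabasal ones 0 passed, of 9 mural ones 2 fell, of 4 Schwann cell ones 1 fell and of 10 cartilage and tendon ones 1 rose, the tendon gene Tnmd. At day 6, 15 of 15 fibroblast markers had a difference above 0 (median 0.61) and 0 passed. The only call among the marker lists at day 6 was 1 of the 10 cartilage and tendon markers, which was higher (0.0143% of all probe sets). The part of these cell types in the collagen differences was not tested.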

How the data were processed

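RNA of whole wound tissue was measured on Affymetrix arrays with 16 arrays in 4 groups. Per the series design text, the authors processed the scanner files with GeneSpring GX (11.0, per the submitters' processing notes). The deposited values are taken as log2 signals that the authors centred for each probe set, which the values themselves show; log base, reference and background correction were not given in the sources used here. Of 45101 probe sets, 932 with several symbols and 9211 with none were left out, as were the Affymetrix controls.

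The 34945 remaining probe sets were fitted in limma 3.58.1 (R 4.3.3; lmFit and eBayes) with 1 mean per group over all 16 arrays, without further normalization or filter. The 5 contrasts were two-sided, and p-values were adjusted by Benjamini-Hochberg over all 34945. SE is the moderated standard error, and every adjusted p is from this fit unless another is named. Spread is given as SD over 4 arrays. The fit was tested on simulated data. Alternatives were other gene summaries, filters, normalization, weights, blocks, fewer arrays and leaving out each replicate. Replicate numbers come from the labels. At day 14, arrays of the same number deviated together (correlations of 0.144 to 0.259), and the numbers follow the Xist difference. Arrays of unlike number but the same kind gave 0.182 and 0.233 (replicates 1 and 2) and 0.069 and 0.201 (replicates 3 and 4). The values therefore do not show pairing by number. At day 6 arrays of the same number did not deviate together (-0.42 to -0.001).

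The members, the gene lists and the tests were chosen with earlier results of these data known. Array-by-array values are given for Col1a1, Col1a2 and Col3a1 and, per class, for the genes of smallest p at each day. For the lists, 1 probe set per gene, that of the largest interquartile range, was used, and up to 4 genes of smallest p at day 14 are named. Lists are described by counts only.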

Additional observations from a re-analysis of the deposited data

Results flagged for a closer look

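The loading effect at day 14 differed between the high-Xist arrays (replicates 3 and 4) and the others (replicates 1 and 2) for 6 collagen probe sets, tested as a difference of effects in the limma fit of 6 groups that was added after the data had been seen. Col11a1 (1418599_at) had the largest difference, 3.87 (adjusted p = 0.022), with the stressed arrays lower in replicates 1 and 2 (-1.47) and higher in replicates 3 and 4 (2.40). For Col15a1 the difference was 2.17, also with opposite signs in both kinds of array. Type I collagen differed by 1.90 for Col1a2 on 1423110_at, by 1.38 for Col1a2 on 1446326_at and by 1.82 for Col1a1 on 1423669_at, with the stressed arrays higher in both kinds. Col13a1 differed by -1.04. The kinds of array were defined from the data and are not groups of the study, and what else distinguishes them was not tested.

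Col25a1 (1438540_at) had 1 array far from the others of its group: replicate 2 of the stressed day 6 wounds read -0.26, while the other 3 lay within 0.01 of 0. Of the 88 groups of 4 arrays looked at in this way 1 stood out, and chance alone gives about 1 in 20.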

How the results depend on the processing

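Counted over each pair of a named value and an alternative, 2256 pairs kept their side of the threshold without a marked turn (1373 of them from leaving out 1 array). These kept direction or, where neither fit passed, changed sign with a shift below the SD within groups. In many pairs the alternative left the difference unchanged by construction, so its direction could not turn. A further 17 pairs that passed in neither fit changed sign with a larger shift. In 63 pairs the value came to pass the test, in 54 it no longer passed, and in 4 it turned direction with at least 1 fit passing. Of the 29 probe sets called at day 14, 8 were called in every one of the settings at the level of probe sets. Counts of collagen probe sets called moved as follows. At day 6 the count of 0 became 7 after quantile normalization (0.864% higher of all probe sets), 9 with array weights (0.962%) and 1 with only replicates 1 and 2 of day 14 (0.0286%). At day 14 the count of 29 became 17 after quantile normalization (0.538% higher of all probe sets) and 10 when only the arrays compared were fitted (0.292%). Fitted per gene it was 15 (largest interquartile range) or 16 (mean of probe sets) of 42 genes, against 3.88% or 3.76% higher of all genes. For the difference between days the count of 0 became 2 when the probe sets of smallest interquartile range were left out (0.0267% higher of the 26208 kept). It was 1 per gene by the largest interquartile range (0.022% of all genes), 7 with array weights (0.804%) and 6 with the Xist block (0.137%), all higher. With only replicates 1 and 2 of day 14 it was 18 (15 higher and 3 lower, against 2.74% and 5.13% of all probe sets). With only replicates 3 and 4 it was 11, all higher (0.157%). For time in unstressed wounds 44 of 82 probe sets became 26 (largest interquartile range) or 21 (mean) of 42 genes. The lower share was 42.7% of probe sets and 47.6% or 40.5% of genes, the last 2 against 31.8% and 25.7% of all genes. After quantile normalization the count was 26 (18 lower, against 20.6%), and with replicates 1 and 2 of day 14 only 28 (20 lower, against 21.8%). With the Xist block it was 31 (22 lower, against 21.8%). For time in stressed wounds 24 of 82 became 11 of 42 genes by the mean (7 higher and 4 lower, against 18.6% and 27.0% of all genes). Leaving out 1 array gave 0 each time at day 6, 20 to 33 at day 14, 0 to 4 for the difference, 33 to 44 for time in unstressed and 19 to 26 for time in stressed wounds. Of all 34945 probe sets these fits called 0 to 7 higher and 0 to 4 lower at day 6, and 498 to 1870 higher and 450 to 2930 lower at day 14. For the difference they called 1 to 77 higher and 0 to 256 lower. With time they called 4608 to 6108 higher and 6824 to 8443 lower in unstressed wounds. In stressed wounds these were 5321 to 6701 and 7854 to 9599. The replicate number as a block (pairing) gave 28 higher at day 14 (2.77% of all probe sets), 1 for the difference (0.02%) and 27 for time in stressed wounds. In the last the lower calls went from 7 to 12 (24.8%), and they were also 12 with array weights (31.9%). No other total or direction moved by over 1.5 times with the block. Col1a1 (1423669_at) turned at day 14 to -0.90 per gene by the largest interquartile range, and with time in stressed wounds to -2.27 and, by the mean, -1.13, since 1455494_at then stands for or joins it. Col15a1 turned to -0.66 with time in unstressed wounds on replicates 3 and 4. Where no cause is given, the cause was not tested.

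The values are centred and carry no detection call, so low signals near background cannot be told from absent ones. 4 arrays per group limit the precision. Day and length of loading changed together, high Xist occurs at day 14 alone, and the tissue is a mixture of cells.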
